A study of Mus musculus with 12 samples.

Results

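The comparison described here is naïve against primed culture in mouse embryonic stem cells (ESCs) that were depleted of SETDB1 and carried TET2 without catalytic activity. It takes the 6 libraries of the mutant TET2 rescue line, 3 grown in naïve and 3 in primed medium, of 12 mRNA-seq libraries in all. They were chosen by their labels, with no measured value used. The other 6 libraries, of the wildtype TET2 rescue line in the same media, served only to ask whether the medium difference depends on the rescue line.

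All cells descended from Tet2 KO ESCs, and stable lines were made from them with PiggyBac vectors carrying either wildtype TET2 or TET2 with the substitutions H1304Y and D1306A in its catalytic domain. SETDB1 was depleted with a lentiviral shRNA in every library, and all cells were selected with puromycin at 1 µg/ml for 3 days, from 48 h after infection. Since the depletion is shared, the response to it was not measured. Primed cells were kept in serum with LIF. Naïve cells were kept in serum-free 2i medium, which holds LIF with PD0325901, an inhibitor of the ERK-activating kinase MEK, and CHIR99021, an inhibitor of GSK3. The labels do not say whether the 3 libraries of a group came from separate cultures, so the p-values measure the spread between these libraries, which may be technical. Each line is a single stable line, so a property of the line and of its TET2 cannot be told apart.

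In 2i, blocking MEK removes the ERK signal that pushes ESCs towards differentiation, and blocking GSK3 stabilises beta-catenin and releases its TCF targets from repression. Naïve ESCs are known for low DNA methylation and for low levels of the de novo methyltransferase cofactor DNMT3L. SETDB1 writes the repressive mark H3K9me3 on endogenous retroviruses, to which it is brought by TRIM28 and KRAB zinc finger proteins. TET2 oxidises 5-methylcytosine. Intracisternal A particles (IAPs) are young, mobile mouse retroviruses, built of an internal region between long terminal repeats (LTRs).

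IAP LTRs are among the repeat classes reported below, beside IAP internal regions and classes outside IAPs. The primers that the study designed for 3 LTR subtypes are shown to give their sequence, 5′ to 3′, with no part in capitals because none was singled out.

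IAPLTR1 and IAPLTR2 forward: cagccaatcagggagtgac
IAPLTR1 reverse: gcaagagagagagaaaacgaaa
IAPLTR2 reverse: atcttacacgcgttctcg
IAPLTR3 forward: cagacaattccggtggtg
IAPLTR3 reverse: cagcttcaggacaggagacc

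The forward primer shared by IAPLTR1 and IAPLTR2 had 2947 exact matches in the mm9 genome, the IAPLTR1 reverse primer 1464 and the IAPLTR2 reverse primer 90. Facing pairs within 300 bases numbered 1116 for IAPLTR1, 24 for IAPLTR2 and 59 for IAPLTR3. The deposited table gives 1 value per repeat class, summed over its copies, and single insertions were not analysed here.

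Total reads on genes ran from 8979339 to 20189214 in the 6 libraries, and total reads on repeats from 3335170 to 11155546. Pearson's r across genes was 0.968 to 0.989 between libraries of the same group and 0.922 to 0.946 between media. Primed replicate 3 stood apart in the repeat table: ribosomal RNA took 46.7% of its repeat reads, against 86.2% and 88.1% in the other primed libraries and 68.8% to 82.1% in the naïve ones. Repeat results are therefore given on the deposited scale and after rescaling the recovered reads by the median of ratios. The median SD within a group then fell from 0.32 to 0.22 in naïve and from 0.45 to 0.21 in primed libraries. Such a scaling centres each library on its typical class, so the fall in SD does not rank the scalings. ESC markers summed to 43200 to 53800 normalised reads in naïve and 50000 to 54700 in primed libraries. Fibroblast markers summed to 71.7 to 101 in naïve and 44.2 to 60.6 in primed libraries, with Col1a2, Col3a1, Postn and Dcn at 0 in all 6. Primitive endoderm markers summed to 47.8 to 59.2 and 59.2 to 85.1, mesoderm markers to 35.8 to 42.3 and 107 to 116, and neuroectoderm markers to 662 to 946 and 746 to 1040. Trophoblast markers were at 0 in the naïve and at 84.0 to 89.0 in the primed libraries. The part of these other markers in the results was not tested.

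Setdb1 (chr3:95127447-95161124 in mm9, minus strand), the depleted gene, had 137 to 412 reads in the naïve and 114 to 327 in the primed libraries. On the deposited scale, a log2-like scale on which a difference of 1 is close to 2-fold for well-read genes, its values were 7.56, 7.46 and 8.04 in naïve and 7.52, 8.26 and 8.55 in primed libraries. The groups overlapped, and the difference of -0.42 ± 0.25 (SE, n = 3) did not pass the test (limma, adjusted p = 0.201). Tet2 read 10.60, 10.81 and 11.95 in naïve and 12.50, 13.20 and 13.27 in primed libraries. Every naïve library lay below every primed one, and Tet2 fell by 1.87 ± 0.34 (limma, adjusted p = 0.000515). Its reads come from the rescue construct and from the disrupted endogenous gene, which cannot be told apart here.

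A large share of the transcriptome differed between the media. Of 14185 genes tested, 4993 (35.2%) differed between naïve and primed cells at an adjusted p under 0.05 in limma, 2595 of them higher (18.3%) and 2398 lower (16.9%) in naïve cells. A difference above 1 as well was found for 1636 (11.5%), 941 higher (6.63%) and 695 lower (4.9%). The median over all tested genes was -0.01. The 3 naïve and 3 primed libraries did not overlap for 43.5% of tested genes. These shares are the background for every list below, and a list is described by its counts and median alone.

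**Figure D1:**
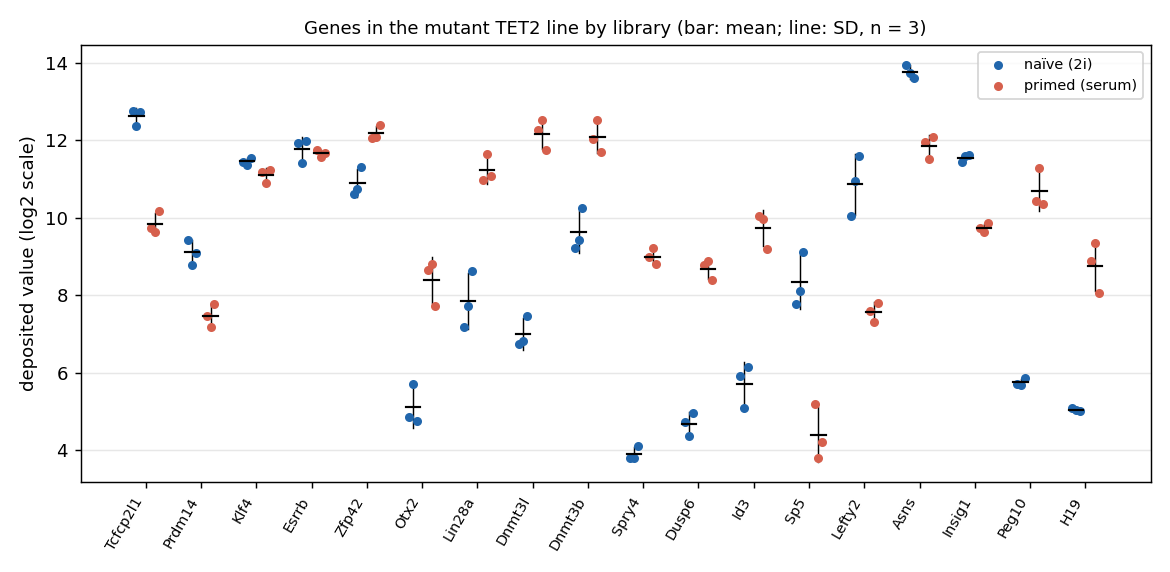
Deposited values (log2 scale, y axis) of 18 genes (x axis) in the 3 naïve and 3 primed libraries of the mutant TET2 line, with the mean as a bar and the SD as a line. Dnmt3l, Spry4, Dusp6, Id3, Peg10 and H19 lie far lower in naïve cells and Tcfcp2l1, Sp5 and Lefty2 far higher, whereas the Esrrb groups overlap.

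On the deposited scale, Dnmt3l had the largest fall in naïve cells among the genes named by size. It read 6.73, 6.81 and 7.47 in naïve and 12.26, 12.51 and 11.74 in primed libraries, a difference of -5.17 ± 0.24 (limma, adjusted p = 8.62e-10). Spry4, a feedback inhibitor of receptor tyrosine kinase signalling, had 0 to 1 reads in naïve and 346 to 526 in primed libraries. Peg10, a retrotransposon-derived imprinted gene, had 25 to 58 against 980 to 2265 reads. Each of these sets of 6 libraries split cleanly by medium. Gja1 (connexin 43, a gap junction protein, -4.10), AU015836 (-4.03), Id3 (-4.01), Dusp6 (-4.00), Etv4 (-3.91), Ina (a neuronal intermediate filament, -3.88) and H19 (-3.71) made up the rest of the 10 largest falls. AU015836 also had 0 to 1 reads in naïve libraries, so its difference and that of Spry4 depend on how the transformation treats low counts. Etv4, with 2 to 4 naïve reads, and Dusp6, with 2 to 16, are affected too, and the order by fold of reads is another. Etv4 averaged 2.59 normalised reads in naïve and 299 in primed libraries, and Dnmt3l 105 and 4690.

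The largest rises included those of Trpm1 (a cation channel, 4.09), Sp5 (a TCF target, 3.94), Serpinb1a (a protease inhibitor, 3.83), Slc22a16 (a carnitine transporter, 3.72), Gpx2 (a glutathione peroxidase, 3.68), Tmc7 (3.62), Entpd3 (an ectonucleotidase, 3.60), Ly75 (an endocytic receptor, 3.50) and Nupr1 (a stress-induced chromatin protein, 3.49). Trpm1 had 221 to 461 reads in naïve and 0 to 1 in primed libraries, so its difference also depends on how low counts are transformed. Gpx2 had 347 to 497 against 5 to 8 reads. All of these had non-overlapping groups by the rule that named them.

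Naïve pluripotency factors moved in both directions, and the core factors did not rise. Of 16 naïve factors tested, 5 were higher and 3 lower, with a median of 0.36. Tcfcp2l1, a LIF and Wnt responsive factor, read 12.76, 12.36 and 12.73 in naïve and 9.72, 9.64 and 10.17 in primed libraries (2.77 ± 0.20, limma adjusted p = 9.51e-08). Prdm14, which represses Fgfr signalling and de novo methyltransferase genes, rose by 1.63 ± 0.19, and Klf5 and Tcl1 each by 0.94. Zfp42, also known as Rex1, went the other way at 10.62, 10.74 and 11.30 in naïve and 12.06, 12.09 and 12.40 in primed libraries (-1.29 ± 0.26). Gbx2 (-0.99) and Nr0b1 (-0.85) were lower too. Klf4 (0.36, adjusted p = 0.0814) and Esrrb (0.12, adjusted p = 0.628) did not pass the test in limma.

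Among 12 core pluripotency factors, 7 were lower in naïve cells and none was higher, with a median of -0.68. Without naïve replicate 3 there were 2 higher and without primed replicate 1 there was 1. Pou5f1 (-0.17), Sox2 (-0.16) and Nanog (0.40) did not pass the test. Lin28a, an RNA-binding inhibitor of let-7 maturation, read 7.19, 7.73 and 8.61 in naïve and 10.96, 11.63 and 11.07 in primed libraries (-3.38 ± 0.34). Utf1 (-2.25), Dppa2 (-2.19) and Sall4 (-1.18) followed.

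Formative and primed epiblast markers were mostly lower. Of 15 tested, 9 fell and 2 rose, with a median of -0.73. Otx2, a driver of the exit from the naïve state, had 9 to 26 reads in naïve and 174 to 390 in primed libraries (-3.29 ± 0.30). Grhl2 (-1.16) and Pou3f1 (-1.06) were lower. Lefty2, a Nodal inhibitor, was the exception at 10.04, 10.94 and 11.59 in naïve and 7.58, 7.31 and 7.81 in primed libraries (3.29 ± 0.43), and Tead2 rose by 0.68.

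The de novo DNA methylation genes fell while the maintenance genes showed no difference that passed the test. Of 10 genes on the list, 5 were lower and none higher. Dnmt3b read 9.22, 9.42 and 10.25 in naïve and 12.02, 12.53 and 11.70 in primed libraries (-2.45 ± 0.28), and Dnmt3a 9.28, 9.04 and 9.75 against 10.57, 10.89 and 10.51 (-1.30 ± 0.19). Gadd45a fell by 1.77. Dnmt1, the maintenance enzyme, differed by 0.29 ± 0.25 (limma, adjusted p = 0.389) and its partner Uhrf1 by 0.23 ± 0.17 (limma, adjusted p = 0.318). Tet1 (0.40, adjusted p = 0.244) and Tet3 (0.26, adjusted p = 0.418) did not pass the test in limma either. Of 7 genes tested around TET activity, Tet2, Ogt (the O-GlcNAc transferase that binds TET proteins, -1.40) and Tdg (a glycosylase that removes oxidised cytosine, -0.45) were lower. Idh2, a mitochondrial source of the TET cofactor 2-oxoglutarate, was higher (1.44). Only 1 of the 3 lower calls was made without naïve replicate 1, naïve replicate 2, primed replicate 2 or primed replicate 3, since Ogt, whose groups overlapped, and Tdg were lost there. Tdg was also lost without naïve replicate 3, with the 6 mutant libraries alone and with a replicate block, and 2 genes were higher without naïve replicate 3 or primed replicate 3.

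In the SETDB1 pathway, 6 of 19 genes for H3K9 methylation and its readers were lower in naïve cells and none was higher (median -0.34). The share called was 31.6%, near the 35.2% of all tested genes, of which 16.9% were lower. There were 4 lower without naïve replicate 1, naïve replicate 2 or primed replicate 2, and 9 without primed replicate 1. Trim28, the corepressor that recruits SETDB1, read 13.62, 13.37 and 13.98 in naïve and 14.90, 14.86 and 14.45 in primed libraries (-1.08 ± 0.19, limma adjusted p = 0.000341). Smarcad1, a chromatin remodeller (-1.53), the HP1 gene Cbx1 (-0.82) and the H3.3 chaperone gene Daxx (-0.63) also fell. Of 11 genes for histone arginine methylation, 6 were lower and 1 higher. Prmt2 (-1.91) and Prmt8 (-1.38) fell the most, and Jmjd6, reported to act as an arginine demethylase, fell by 0.77 ± 0.18. Prmt7 rose by 0.55 ± 0.15 (limma, adjusted p = 0.0117), a call lost without naïve replicate 2. Prmt5, the main symmetric arginine methyltransferase, differed by -0.37 ± 0.16 (limma, adjusted p = 0.0774). Polycomb subunits had 6 lower and none higher of 16 (37.5% called, also near that of all genes), among them Phc1 (-1.51) and Jarid2 (-1.37).

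**Figure D2:**
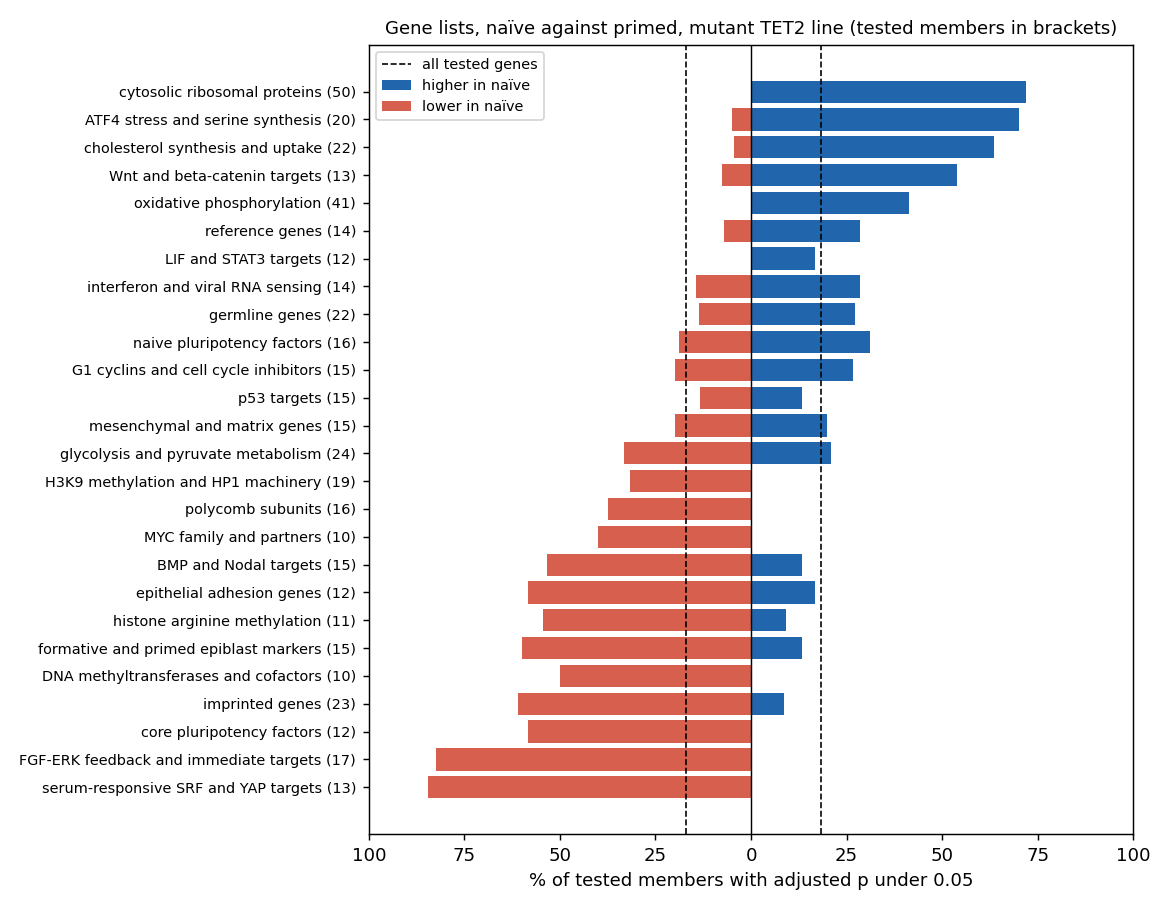
Share of tested members (x axis, %) of each gene list (y axis, number tested in brackets) that was higher (right) or lower (left) in naïve cells of the mutant TET2 line at an adjusted p under 0.05, for lists with at least 10 tested members. Dashed lines mark all tested genes at 18.3% higher and 16.9% lower.

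The pathways that the medium components address were next. Of 17 tested ERK feedback and immediate genes, 14 were lower and none higher, with a median of -1.02. Dusp6, a phosphatase of ERK, read 4.73, 4.37 and 4.95 in naïve and 8.77, 8.88 and 8.39 in primed libraries. Etv4, an ETS factor, read 4.31, 4.60 and 4.31 against 8.46, 8.61 and 7.90. Egr1 fell by 2.77 ± 0.49. Myc, which is also an ERK target, differed by -2.83 ± 0.27. All 4 had non-overlapping groups.

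Wnt and beta-catenin targets were the counterpart, with 7 higher and 1 lower of 13 tested and a median of 0.66. Sp5 had 228 to 924 reads in naïve and 0 to 10 in primed libraries (3.94 ± 0.40). Tnfrsf19 (1.56), Cdx1 (1.49), Axin2, a feedback inhibitor of the pathway (1.37 ± 0.34), and Lef1 (0.86) rose, the last a call lost without naïve replicate 2, naïve replicate 3, primed replicate 1 or primed replicate 3. Id2 was the member that fell (-2.17). LIF is present in both media, and of 12 LIF and STAT3 targets 2 were higher (16.7% called), Tcfcp2l1 and Pim1 (1.19). Socs3, the feedback inhibitor, differed by 0.22 and Stat3 by 0.36, neither past the test, and 1 gene of the list was lower without naïve replicate 3 or primed replicate 1.

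BMP and serum responses were lower. Of 15 BMP and Nodal targets, 8 fell and 2 rose (median -0.78), with 1 rise without naïve replicate 1 or primed replicate 3. Id3 read 5.91, 5.10 and 6.14 in naïve and 10.03, 9.97 and 9.20 in primed libraries (-4.01 ± 0.32). Id1 (-3.45) and Bmp4 (-2.84) were lower too. Of 13 targets of the serum-activated factors SRF and YAP, 11 fell and none rose, with a median of -1.23. Ctgf and Cyr61, secreted YAP targets, fell by 1.72 and 1.98, and Cnn2, an actin-binding calponin, read 7.93, 7.50 and 7.08 against 9.76, 9.85 and 8.98 (-2.03 ± 0.28). Thbs1 had no read in the naïve libraries, and against 3 reads per library was at least 8.97-fold lower there.

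Promoter sequences are shown for members of these lists and of the ATF4 list below. In exploration, 13 motifs were searched in 8 lists, on both strands of RefSeq promoters of GRCm38.p6, and 3 of those 104 combinations are shown, picked after the matches were seen. They are given as description only. Capitals mark 1 match a stretch, and Slc7a11 holds a second, ttgcatca on the other strand, left in lower case. Each stretch ends at or before the transcription start.

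Cnn2, CArG box, chr10:79988494-79988599, plus strand: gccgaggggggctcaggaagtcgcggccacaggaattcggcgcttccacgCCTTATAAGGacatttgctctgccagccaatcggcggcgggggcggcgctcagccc
Sp5, CTTTGAT, chr2:70474769-70474875, plus strand: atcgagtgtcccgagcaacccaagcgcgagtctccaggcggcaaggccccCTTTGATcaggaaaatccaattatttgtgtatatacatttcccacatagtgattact
Asns, TGATGNAA, chr6:7693210-7693282, minus strand: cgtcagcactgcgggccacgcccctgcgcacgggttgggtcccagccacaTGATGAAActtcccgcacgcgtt
Slc7a11, TGATGNAA, chr3:50443622-50443729, minus strand: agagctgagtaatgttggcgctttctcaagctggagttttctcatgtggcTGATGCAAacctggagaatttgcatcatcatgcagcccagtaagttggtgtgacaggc

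Matches were counted by gene, over all promoters of a gene. The CArG box, the site of SRF, was in 4 of 8 genes with a promoter of the SRF and YAP list. It was in 1.81% of all 27025 genes with a promoter. CTTTGAT, a TCF site, was in 2 of 9 of the Wnt list and 4.29% of all, and it overlaps CTTTGATC, which was searched too. TGATGNAA, the site of ATF4 with a C/EBP partner, was in 5 of 17 of the ATF4 list and 4.51% of all. Promoters were found for 61.5% of the tested SRF and YAP genes and 69.2% of the Wnt genes, under 80%, so the comparison of shares is void for those lists. Asns (1.91) and Slc7a11 (-0.48), which both hold a match, had differences of opposite sign.

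Epithelial and matrix genes included both rises and falls, and the called neuroectoderm genes were all lower. Of 12 epithelial adhesion genes, 7 fell and 2 rose. Cldn6, a tight junction claudin, fell by 1.91, Krt18 by 1.63 and Krt8 by 1.52, while Cdh1 (E-cadherin, 0.67) rose. Ocln rose by 1.01 with overlapping groups, a call lost without naïve replicate 1. Fn1, fibronectin, was the largest rise among 15 matrix and mesenchymal genes (1.73 ± 0.27), of which 3 rose and 3 fell, with 1 fall without naïve replicate 2 or primed replicate 1. Of 5 tested neuroectoderm genes 4 fell, among them Neurod1 (-1.76), Tubb3 (-1.54) and Pax6 (-1.37). Eomes, a T-box factor of mesoderm and trophoblast, fell by 1.39. Gata3 had no read in the naïve and 50 to 76 in the primed libraries, at least 28.9-fold lower in naïve cells against 3 reads per library. Most other lineage genes were too low to be tested, and fewer cells of a type and less RNA per cell cannot be told apart in bulk samples.

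Imprinted genes were mostly lower, with 14 of 23 tested falling and 2 rising (median -0.80). Peg10 fell by 4.94 ± 0.21 and H19, a maternally expressed long noncoding RNA, read 5.09, 5.04 and 5.01 in naïve and 8.89, 9.34 and 8.06 in primed libraries. Mest (-2.14) and Snrpn (-1.74), both paternally expressed, were lower. Plagl1 (1.45) and Igf2r (1.09) were higher. The libraries did not keep strand, so reads of overlapping antisense transcripts cannot be separated from these genes.

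Germline genes, many of which are silenced by promoter methylation, had 6 higher and 3 lower of 22. The share called was 40.9%, near the 35.2% of all tested genes. Dazl, a germ cell RNA-binding protein gene, read 13.41, 12.91 and 12.20 in naïve and 10.37, 9.79 and 11.67 in primed libraries (2.23 ± 0.36). Brdt (2.00) and Stag3 (1.88), both with meiotic roles, rose. Tex19.1 (-0.96) and Ddx4 (-0.82) fell, the last a call lost without naïve replicates 2 or 3 or primed replicates 2 or 3. Without naïve replicate 3 there were 10 higher and 1 lower, and without naïve replicate 2 there was also 1 lower. Genes of the 2-cell-like state showed 1 lower of 7 tested (14.3% called), Gm6763 (-0.95). Zscan4c, Zscan4d and Zscan4f, near-identical copies that can share reads, differed by -0.59, -0.90 and -0.51 without passing the test. Without primed replicate 2, 6 of the 7 were lower, and without naïve replicates 1 or 2 or primed replicates 1 or 3 none was.

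Metabolic lists held many genes that rose. Of 20 genes of the ATF4 amino acid response and serine synthesis, 14 were higher and 1 lower (median 0.75). Asns, asparagine synthetase, read 13.95, 13.72 and 13.60 in naïve and 11.94, 11.51 and 12.08 in primed libraries (1.91 ± 0.17, limma adjusted p = 5.03e-07). Ddit3 (CHOP, 1.98), Ddit4 (1.83), Vldlr (1.73) and Atf4 itself (0.73) rose. Slc7a11, a cystine transporter, fell by 0.48, a call lost without naïve replicates 2 or 3 or primed replicates 1 or 2, with the 6 mutant libraries alone and with a replicate block. Of 22 genes of cholesterol synthesis and uptake, 14 rose and 1 fell (median 0.80), with no fall without primed replicate 2. Insig1, a sterol sensor, read 11.44, 11.58 and 11.61 against 9.72, 9.62 and 9.85 (1.82 ± 0.14). Dhcr7 (1.84) and Cyp51 (1.64), enzymes of sterol synthesis, rose.

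Of 50 cytosolic ribosomal protein genes 36 were higher and none lower (median 0.63), among them Rpl26 (0.99) and Rpl22 (0.95). That count was 18 without naïve replicate 2 and 21 without primed replicate 2. Of 41 nuclear oxidative phosphorylation genes 17 were higher and none lower (median 0.42), led by Cox6c (1.05) and Cox8a (0.95), and 11 without either of the same libraries. Glycolysis genes were split, with 5 higher and 8 lower of 24. Aldoc (1.63) and Hk1 (1.52) rose, and Pdk1, which inhibits pyruvate dehydrogenase (-2.03), and the glucose transporter gene Slc2a1 (-1.82) fell. There were 3 higher without naïve replicate 1, 4 lower without naïve replicate 2 and 5 lower without primed replicate 1. Among cell cycle genes, the inhibitor Cdkn1a rose by 1.90 ± 0.19 and Ccnd2, a G1 cyclin, fell by 1.82 ± 0.24.

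Viral RNA sensing and interferon genes had 4 higher and 2 lower of 14 (42.9% called, against 35.2% of all tested genes). Bst2, a restriction factor that tethers virions (1.45), and Stat2 (1.27) rose. Ddx58, the RNA sensor RIG-I (-0.92), and Irf3 (-0.63) fell, with neither call made without naïve replicate 1 and 1 call made without naïve replicate 2 or primed replicate 2. Of 14 genes often used as references, 4 were higher and 1 lower (35.7% called, near that of all genes), with 2 higher without primed replicate 3. B2m (1.42), Gusb (1.16), Rpl13a (0.78) and Sdha (0.44) rose, and Actb, which is also an SRF target, fell by 1.05 ± 0.16.

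In the repeat table, the medium difference was concentrated on few classes, and IAPs held the largest single share of the rises. Of 939 repeat classes tested, 32 (3.41%) had an adjusted p under 0.05 and a difference above 1, 22 higher (2.34%) and 10 lower (1.06%) in naïve cells. After the median of ratios the numbers were 37 (3.94%), 26 higher (2.77%) and 11 lower (1.17%), and 31 classes were called under both scalings. On the deposited scale 14 classes were called without naïve replicate 1, 13 without naïve replicate 2, 15 without primed replicate 1 and 11 without primed replicate 2. With no limit on the difference, 81 rescaled classes (8.63%) passed, 53 higher (5.64%) and 28 lower (2.98%). Groups did not overlap for 107 classes as deposited (11.4%), with naïve libraries higher for 6.92% and lower for 4.47% of classes, and for 23.7% after the median of ratios. IAP internal regions and LTRs gave 8 of the 22 rises on the deposited scale, from 16 classes tested, and 9 after the median of ratios. None of the 16 fell. Groups did not overlap for 9 of the 16. The median over IAP classes was 1.04, against -0.04 over all classes.

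**Figure D3:**
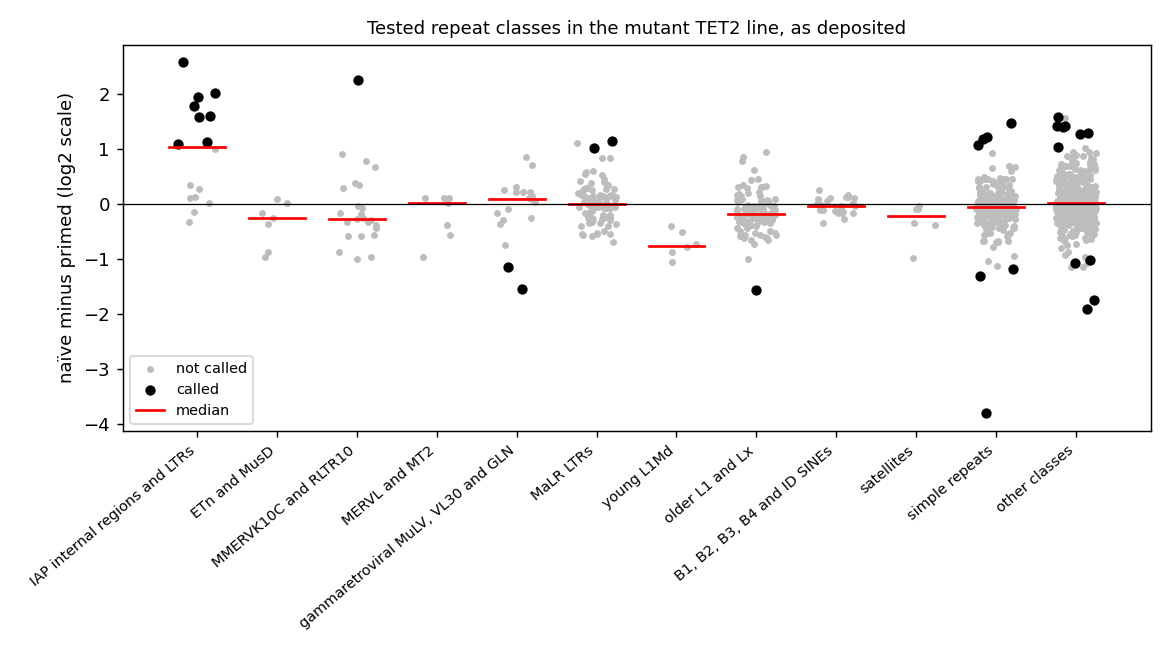
Naïve minus primed difference (log2 scale, y axis) of each tested repeat class of the mutant TET2 line in its group (x axis), as deposited. Black points are called classes and red lines are medians. IAP classes have a median of 1.04, with 8 of 16 called, and young L1Md classes one of -0.76, with none called.

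IAPEz-int, the internal region of the most abundant IAP class, had 88576 to 107018 reads in naïve and 15001 to 39055 in primed libraries. It read 16.32, 16.69 and 16.12 in naïve and 14.11, 14.54 and 15.68 in primed libraries (1.60 ± 0.35, limma adjusted p = 0.00949). No naïve library overlapped a primed one, though primed replicate 3 was the nearest. After the median of ratios the primed libraries drew together at 14.45, 14.68 and 15.13 and the difference was 1.63 ± 0.28. On the deposited scale the call was lost without naïve replicate 2, primed replicate 1 or primed replicate 2.

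Of the IAPLTR1 and IAPLTR2 classes all but IAPLTR2b rose. IAPLTR1_Mm read 13.07, 13.40 and 12.98 in naïve and 11.09, 11.12 and 11.94 in primed libraries (1.77 ± 0.28, limma adjusted p = 0.000454), and IAPLTR1a_Mm differed by 1.57 ± 0.27. IAPLTR2_Mm (1.08 ± 0.26, adjusted p = 0.0204) and IAPLTR2a (1.12 ± 0.30, adjusted p = 0.0389) rose by less in limma. Both calls were lost without naïve replicates 1 or 2 or primed replicates 1 or 2, and with the 6 mutant libraries alone. That of IAPLTR2a was also lost without naïve replicate 3. That of IAPLTR2_Mm was also lost on scaling by the size factors of the gene table. IAPLTR2b, at 7.96, 8.27 and 8.47 in naïve and 7.59, 7.87 and 8.44 in primed libraries, overlapped and differed by 0.27 ± 0.29 (limma, adjusted p = 0.979). Of the primer pairs above, that for IAPLTR1 had more facing matches than that for IAPLTR2.

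On the deposited scale, IAPEy-int had the largest rise of all tested classes. It read 10.99, 11.33 and 10.53 in naïve and 7.66, 8.54 and 8.94 in primed libraries (2.57 ± 0.33, limma adjusted p = 1.96e-05). IAPEY_LTR (2.01) and IAP-d-int (1.93) rose too. IAPEY2_LTR, at 1.00 ± 0.33, was called only after the median of ratios (1.04, limma adjusted p = 0.00921). IAPLTR3-int (0.02) and IAPLTR4 (-0.32) showed overlapping groups and no call under either scaling. The mean over the 16 IAP classes was 8.92, 9.25 and 9.44 in naïve and 7.83, 8.12 and 8.84 in primed libraries, a difference of 0.94, given as a description with no test. Leaving out naïve replicate 2, primed replicate 1 or primed replicate 2 left 5 IAP classes called on the deposited scale, and without primed replicate 3 there were 9.

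**Figure D4:**
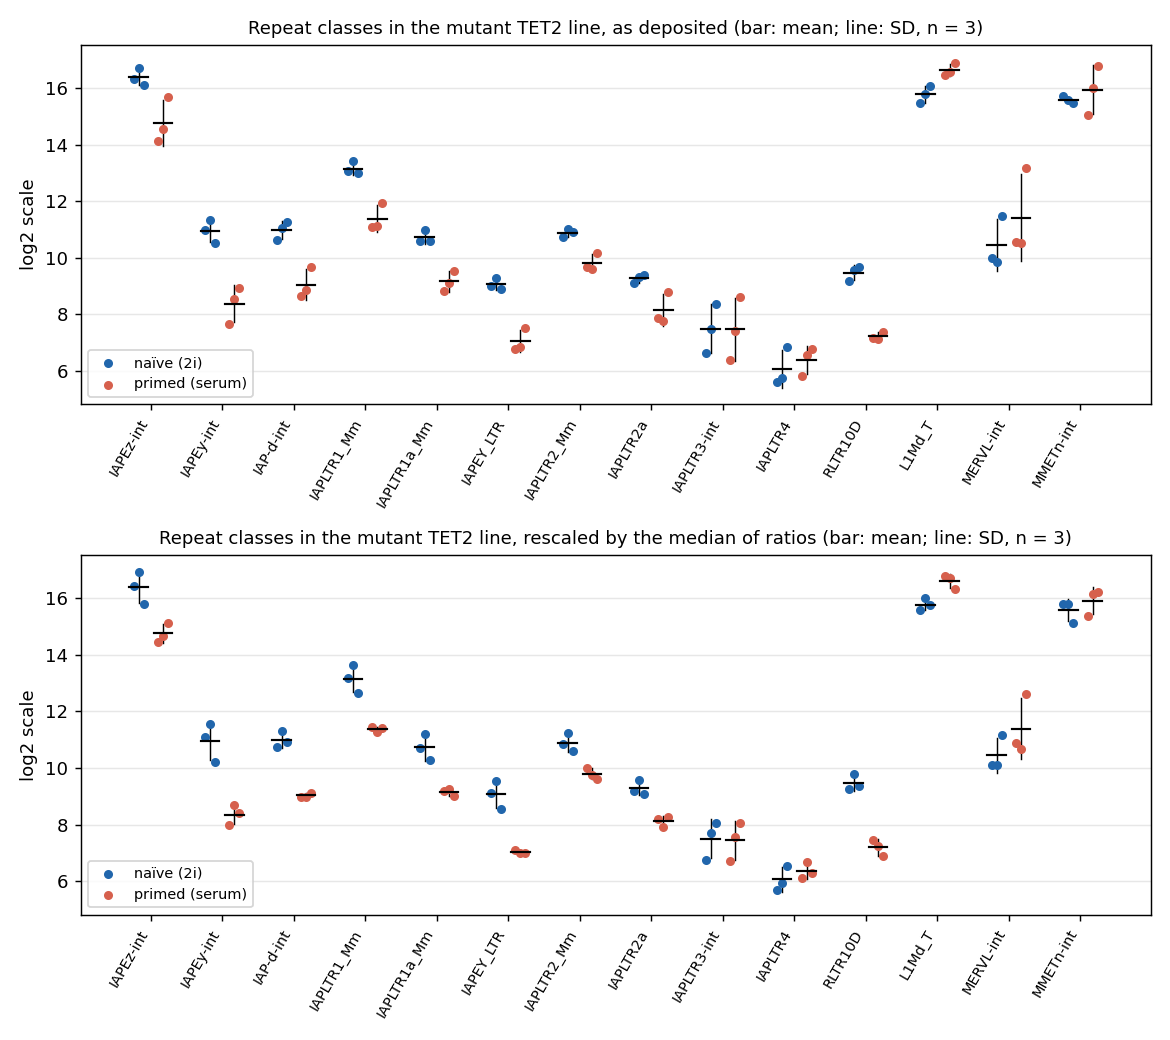
Values (log2 scale, y axis) of 14 repeat classes (x axis) in the 3 naïve and 3 primed libraries of the mutant TET2 line, as deposited (upper) and after the median of ratios (lower), with the mean as a bar and the SD as a line. Naïve values of IAPEz-int, IAPEy-int, IAPLTR1_Mm and RLTR10D lie above all primed ones under both scalings, and IAPLTR3-int, IAPLTR4 and MERVL-int overlap.

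Outside IAPs, RLTR10D, of the MMERVK10C and RLTR10 group, read 9.16, 9.56 and 9.68 in naïve and 7.15, 7.12 and 7.39 in primed libraries (2.25 ± 0.28, limma adjusted p = 1.96e-05), the only call among the 24 classes of that group. RLTR44D (1.57), the telomere-like simple repeat (TTGGGG)n (1.47), LTR41B (1.42), U1 (1.27), MLT1A1 (1.14) and MLT-int (1.02) were also higher. The libraries were made from purified mRNA, so the value of U1, a small nuclear RNA, may not give its level in the cells. The calls of LTR41B, U1, MLT1A1 and MLT-int were each lost on leaving out single libraries, naïve replicate 1 and primed replicate 2 among them in every case. That of MLT-int was also lost on scaling by the size factors of the gene table.

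The strongest fall was of a simple repeat, (ATAAG)n, with 4 to 5 reads in naïve and 109 to 208 in primed libraries (-3.80 ± 0.29, limma adjusted p = 5.71e-09). The size of this difference depends on how low counts are transformed. Whether the reads come from many copies of the repeat or from few was not tested. Kanga11a (-1.90) and Ricksha_c (-1.75) are DNA transposon classes, and HAL1 is an old LINE-like class with 506 to 1502 against 1525 to 2081 reads (-1.56 ± 0.30). Of 19 gammaretroviral classes, RLTR4_MM-int (-1.55, with overlapping groups as deposited) and RLTR1D (-1.14) fell. Calls were lost without primed replicate 2 for Kanga11a, Ricksha_c, RLTR4_MM-int, RLTR1D, RMER20B and RLTR9A, and without naïve replicate 2 for the same 6 classes. RMER20B (-1.08) and RLTR9A (-1.02) were near the limits, and RLTR9A was not called after the median of ratios (-0.99).

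Young L1 LINEs, the ETn and MusD elements, MERVL and MT2, SINEs and satellites had no called class. All 6 young L1Md classes were lower in naïve cells, with a median of -0.76, which was -0.36 without primed replicate 3. L1Md_T read 15.47, 15.77 and 16.07 in naïve and 16.46, 16.58 and 16.88 in primed libraries (-0.87 ± 0.29, limma adjusted p = 0.14). After the median of ratios its adjusted p in limma was 0.012 at a difference of -0.84, under the limit of 1. L1Md_Gf (-1.06), L1Md_A (-0.73) and L1Md_F2 (-0.40) did not pass the test, and leaving out 1 library gave -1.67 to -0.53 for L1Md_Gf and -1.14 to -0.21 for L1Md_A. MERVL-int, the retrovirus of the 2-cell-like state, read 9.99, 9.85 and 11.49 against 10.55, 10.51 and 13.18 (-0.97 ± 0.55, limma adjusted p = 0.647), with replicate 3 the highest library of each group. MMETn-int (-0.36) and MMERVK10C-int (-0.39) showed overlapping groups and no call.

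The study lists, from other libraries of ESCs in these media, repeat classes that respond to SETDB1 depletion. Those libraries were depleted of ribosomal RNA, whereas the ones described here were made from purified mRNA. Only membership was taken from that list. Of 49 classes listed for both media, 11 were higher and 1 lower in naïve cells, with a median of 0.34. The 14 IAP classes among them held 8 of the rises, and the 35 others had 3 higher and 1 lower with a median of 0.26. Of 53 tested classes listed for naïve cells alone, 1 was higher and 2 lower (median -0.24), and none of 8 listed for primed cells alone was called. For the classes of both media, 7 were higher without naïve replicate 2, primed replicate 1 or primed replicate 2, and 17 without primed replicate 3. Their median ran from 0.17 without primed replicate 1 to 0.59 without primed replicate 3. The median of the classes listed for naïve cells alone ran from -0.43 without naïve replicate 3 to 0.16 without primed replicate 3, a change of sign.

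The medium difference of the mutant line was set against that of the wildtype TET2 line, measured in separate libraries. The lines did not have like values of Tet2 RNA. It averaged 13.27 in naïve and 14.83 in primed wildtype libraries, against 11.12 and 12.99 in the mutant ones, a difference that was not tested. The study reports like amounts of TET2 protein in the rescue lines. The wildtype line had 5095 genes called (35.9%), and 3696 were called in both, 74.0% of the mutant and 72.5% of the wildtype calls. None of the shared calls had opposite signs, and 99.0% of genes called in the mutant line had the same sign in the wildtype line. Pearson's r of the differences was 0.90 across genes, which are not independent replicates.

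**Figure D5:**
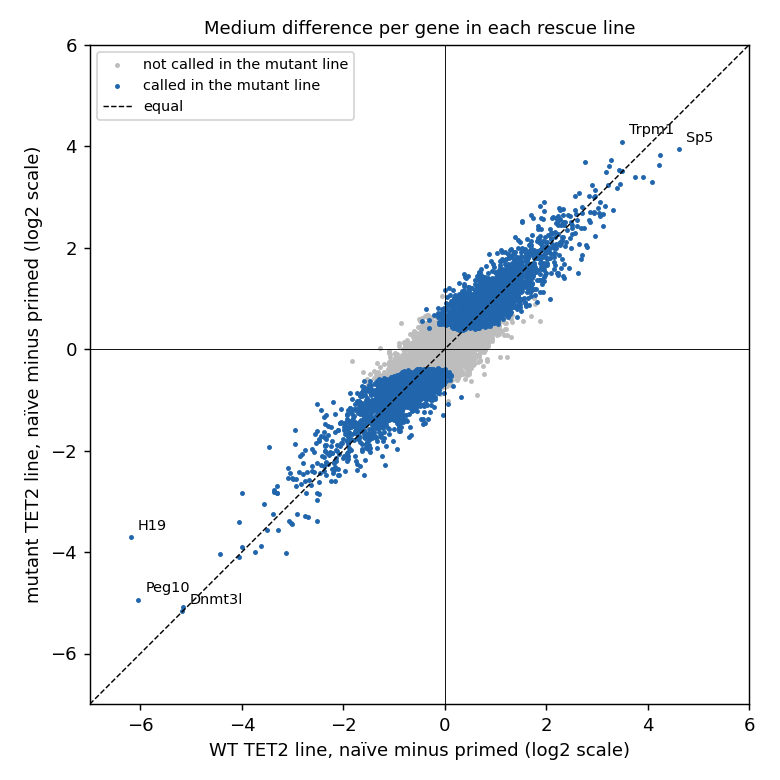
Naïve minus primed difference per tested gene (log2 scale) in the wildtype TET2 line (x axis) and in the mutant TET2 line (y axis). Blue points are genes called in the mutant line, the dashed line marks equal differences, and H19, at -3.71 against -6.19, lies farthest from it.

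The test of the medium difference between lines called 0 genes (0%) and 0 repeat classes (0%) in limma. The limit was an adjusted p under 0.05. At an unadjusted p under 0.05 there were 489 genes and 4 repeat classes, or 21 classes after the median of ratios, and limma-voom on recovered reads called 0 of each. The median standard error of this difference between lines was 0.28 for genes. On simulated counts 62% of such differences of 1 (log2) and 98% of those of 2 were recovered for genes. For repeat classes these shares were 73.3% and 100%. The simulation gave every feature the same spread and no shift between libraries. It held 12828 genes and 780 repeat classes, against 14185 and 939 tested, because features with few reads were left out. The shares recovered do not cover those. In the data the median SD within a group was 0.20 and 0.23 for genes. It was 0.32 and 0.45 for deposited repeat values, so the shares recovered may be too high for repeat classes. Same-numbered naïve libraries of the mutant and wildtype lines deviated together (r of 0.59, 0.30 and 0.39 over genes), the primed ones less so (0.16, -0.07 and 0.19). A fit that blocked on replicate number across lines also called 0 genes and 0 repeat classes. H19 had the smallest p: it fell by 3.71 in the mutant and by 6.19 in the wildtype line, a difference of 2.48 that did not pass the correction (limma, adjusted p = 0.348).

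The medium difference of IAP classes did not differ between lines past the test. Their levels were not tested between lines. IAPEz-int averaged 17.56 in naïve and 16.54 in primed wildtype libraries, against 16.38 and 14.78 in the mutant ones. IAPEz-int differed between media by 1.60 in the mutant and 1.02 in the wildtype line, a difference of 0.58 ± 0.49 between lines (limma, adjusted p = 0.998). IAPLTR1_Mm differed by 1.77 and 0.98, a difference of 0.79 ± 0.40 between lines. IAPEY_LTR differed by 2.01 and 1.19, a difference of 0.81 ± 0.41 (limma, adjusted p = 0.998 for both). The wildtype line had 22 classes called (2.34%), with 3 of 16 IAP classes among them against 8 in the mutant line, and 16 repeat classes of any kind were called in both lines. The count of IAP classes depends on the limits. In the wildtype line IAPLTR1a_Mm (1.00, limma adjusted p = 0.0551), IAPLTR1_Mm (0.98, limma adjusted p = 0.0765) and IAPLTR2a (0.97, limma adjusted p = 0.105) were near them and not called. Naïve wildtype replicate 3 also stood apart, with ribosomal RNA at 37.7% of its repeat reads.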

How the data were processed

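mRNA-seq libraries of mouse ESCs were made by the authors without strand information, trimmed with Trim Galore 0.3.3 and aligned to mm9 with TopHat2 2.0.9. Reads with several matches were placed at random for repeats. The authors deposited log2-like values, made with the variance-stabilising transformation of DESeq2 in separate tables for genes and for repeat classes, so levels are compared only within a table. Reads were recovered by inverting the transformation (100% of values whole within 0.01).

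Features with a mean at least 1 above the lowest value of their table were tested with limma 3.58.1 in R 4.3.3 (variance trend, 12 libraries, 4 groups, Benjamini-Hochberg over all tested features). Genes were called at an adjusted p under 0.05, repeat classes also at a difference above 1. The deposited repeat scaling differed from the median of ratios by a factor of 0.654 to 1.214 in the mutant libraries. Alternatives covered filters, scaling, limma-voom, left-out libraries and a replicate block. On simulated counts of 12828 genes, 92% of changes of 1 and 100% of changes of 2 (log2) were recovered, with 8 false calls. Every simulated gene was given the same spread, and genes with few reads were left out.

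Named genes were those the study names, the 10 largest called differences a direction, and per list its defining members and up to 4 called members a direction. A few genes that the rule would name are not reported here. The members and lists were chosen with earlier results of these data known. The 34 gene lists and the repeat groups are described by counts and medians, with no test of a group. Sequences came from RefSeq (GRCm38.p6) and, for primers, from the study's tables. Values after ± are limma standard errors, and floors cover counting error only.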

Additional observations from a re-analysis of the deposited data

How the results depend on the processing

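Gene counts moved by less than 1.5 times under every other scaling, filter and test, and leaving out 1 library gave 3563 to 5099 calls, 1880 to 2648 higher and 1667 to 2451 lower. Requiring a difference above 1 gave 1636 genes, 941 higher and 695 lower. The test of the medium difference between lines called 1 gene without naïve wildtype replicate 1, and 0 to 1 over all left-out libraries. Repeat calls depended more on single libraries, with 11 to 49 in all, 9 to 38 higher and 2 to 18 lower, both scalings included. Without primed replicate 3, on the deposited scale, 45 classes were called, 38 of them higher, and without naïve replicate 3 there were 13 lower. After the median of ratios and with no limit on the difference there were 81 classes, 53 higher and 28 lower. The cause was not tested. Over genes, replicate numbers did not pair the mutant libraries: same-numbered naïve and primed libraries correlated at -0.05, -0.15 and -0.08. Over repeat classes they correlated at 0.20, 0.05 and 0.20, and replicates 1 and 3 matched best with their own number. Replicate 3 also had the lowest ribosomal RNA share of repeat reads in every group. It was 68.8% in naïve mutant, 46.7% in primed mutant, 37.7% in naïve wildtype and 76.3% in primed wildtype libraries. The labels do not say what the replicate number stands for. With the replicate block, 17 repeat classes were lower.

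Group means were computed for 20 repeat groups and recomputed for 4. Without 1 library each they ranged from 0.72 to 1.23 for IAPs, -1.04 to -0.38 for young L1Md, 0.27 to 0.76 for classes responsive in both media, and -0.35 to 0.16 for classes responsive in naïve cells alone, whose mean was -0.12 with all libraries and changed sign without naïve replicate 2 (0.01) or primed replicate 3 (0.16). Among named features, 3 not called changed sign: Sox2 (-0.28 to 0.01), MMETn-int (-0.81 to 0.05) and IAPLTR3-int (-0.51 to 0.59, -0.07 with the gene size factors, and -0.05, -0.22 and -0.31 after the median of ratios without naïve replicate 2, naïve replicate 3 or primed replicate 1). Calls of single classes near the limits, such as RLTR9A, MLT-int and RMER20B, were lost in many settings.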
